A study of Homo sapiens with 14 samples.

Results

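The genes of the hypoxia-inducible factor (HIF) subunits and of the enzymes that sense oxygen for them were followed in SK-N-BE2, an established human cell line of MYCN-amplified neuroblastoma. The 10 members were named by gene symbol and all 10 were found among the 19923 genes counted: the alpha subunits HIF1A, EPAS1 and HIF3A, the beta subunits ARNT and ARNT2, the prolyl hydroxylases EGLN1, EGLN2 and EGLN3, the ubiquitin ligase subunit VHL and the asparaginyl hydroxylase HIF1AN. Polyadenylated RNA had been sequenced in 14 libraries, 2 for each of 7 groups. Batch 1 of the labels held wild-type cells treated with 10 µM or 50 µM CoCl2, or with water (H2O) as the control. Batch 2 held cells with no treatment, labelled wild type (WT) or TET2KO with the number 1, 2 or 3. Each group was compared with the control of its own batch. The duration of treatment, the way the knockouts were made, and whether a knockout number stands for a clone were not given in the sources used here. The labels do not say that replicates were separate cultures, so the p-values measure the spread between these libraries, which may be technical.

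In oxygenated cells, the prolyl hydroxylases modify the alpha subunits, VHL binds the modified protein and directs it to degradation, and HIF1AN blocks its contact with coactivators. When the hydroxylases are inactive, an alpha subunit accumulates, pairs with ARNT or ARNT2 and activates genes of glycolysis, angiogenesis and pH control. EGLN1 and EGLN3 are themselves targets of the pathway. CoCl2 is used as a chemical mimic of hypoxia, and TET2 oxidises 5-methylcytosine in DNA to 5-hydroxymethylcytosine. The counts measure mRNA, while the regulation of alpha subunits by oxygen acts mainly on the protein.

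The DNA before the start site of 4 members is shown, since HIF1A was the most abundant alpha subunit, EPAS1 was the most changed member and EGLN1 and EGLN3 were the hydroxylases that rose with CoCl2. The sequences are from RefSeq (build GRCh38.p14), are read on the strand of the gene and stop before bases that GENCODE 29 assigns to an exon. Capitals mark the core of a hypoxia response element, ACGTG or GCGTG, on either strand.
HIF1A, chr14:61695263-61695512, plus strand: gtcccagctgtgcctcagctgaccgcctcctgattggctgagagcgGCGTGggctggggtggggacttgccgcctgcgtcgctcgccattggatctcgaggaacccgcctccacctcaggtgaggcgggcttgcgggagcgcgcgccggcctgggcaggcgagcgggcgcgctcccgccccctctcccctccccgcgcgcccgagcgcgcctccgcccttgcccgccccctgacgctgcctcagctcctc
EPAS1, chr2:46297157-46297401, plus strand: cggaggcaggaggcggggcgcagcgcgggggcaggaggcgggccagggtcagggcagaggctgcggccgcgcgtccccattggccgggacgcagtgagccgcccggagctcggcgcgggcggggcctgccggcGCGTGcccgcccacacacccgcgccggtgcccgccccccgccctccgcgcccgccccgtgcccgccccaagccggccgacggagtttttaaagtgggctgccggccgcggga
EGLN1, chr1:231422288-231422317, minus strand: ccgcggggccgtggtgtACGTGcagagcgc
EGLN3, chr14:33951082-33951324, minus strand: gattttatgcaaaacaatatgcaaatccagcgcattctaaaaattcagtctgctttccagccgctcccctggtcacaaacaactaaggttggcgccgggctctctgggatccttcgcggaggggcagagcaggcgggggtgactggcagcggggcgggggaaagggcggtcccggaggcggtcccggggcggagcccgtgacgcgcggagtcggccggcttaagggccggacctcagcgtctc
For EGLN1 only the 30 bases that hold the core are shown, since all 250 bases before its RefSeq start lie in an EGLN1 exon of GENCODE 29. RefSeq gave 12 windows of 250 bases before a start for 8 of the members, up to 3 for 1 gene. A core was found in 5 of these 12 windows, each of a different member, and in 43.1% of all 34788 such windows, so the share among the members is near the background. ACGTG was in 18.5% and GCGTG in 32.2% of all windows. HIF1A held a GCGTG that began 204 bases before the start, EPAS1 held a GCGTG 117 bases before it, and EGLN1 held an ACGTG 13 bases before it. In 1 of its 2 windows EGLN2 held an ACGTG on each strand that overlap in CACGTG, and in 1 of its 3 windows HIF3A held 3 copies of GCGTG. No core was in the windows of EGLN3, ARNT and HIF1AN or in a second window of HIF1A. The windows stand for RefSeq starts only. Those of EPAS1, EGLN3 and HIF1AN lie inside the span of the counted gene, and starts outside the windows were not searched. CpG dinucleotides, the sites that TET enzymes act on, numbered 38 in the EPAS1 window, more than in 96.7% of all windows. The HIF1A window shown above held 29 (more than in 85.9%) and the second HIF1A window held 3 (22.9%). EGLN1 had 36 (95.1%), EGLN3 had 23 (74.2%), and the 2 windows of EGLN2 had 35 and 38 (94.2% and 96.7%). ARNT had 18 (63.2%), HIF1AN had 13 (53.4%), and the 3 windows of HIF3A had 20, 5 and 4 (67.5%, 34.5% and 29.4%). Neither DNA methylation nor binding was measured in these libraries, and a match of letters is a description of the sequence only.

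The depth of a library was 31214128 to 39540111 counted fragments in batch 1, and batch 2 libraries held 52095024 to 59263320 counts. A batch 2 count mostly stood for 1 read of a pair, since 77.3% to 80.5% of its counts from 1 to 10 were even numbers, against 39.0% to 42.3% in batch 1. The adrenergic neuroblastoma markers summed to 6428 to 12590 CPM (counts scaled to library totals) over all libraries, lowest in TET2KO 2 and highest with 10 µM CoCl2. Most of this sum was MYCN, CHGA and CHGB. TET2 mRNA was higher in the libraries labelled TET2KO 1 and 2 than in WT. It stood at 67.8 ± 4.30 CPM (SD, n = 2) in WT, against 78.5 ± 2.71 CPM in TET2KO 1 (log2 fold change 0.21, adjusted p = 0.000664 in edgeR's quasi-likelihood test), 89.2 ± 2.67 CPM in TET2KO 2 (0.40, adjusted p = 3.86e-12) and 71.8 ± 5.08 CPM in TET2KO 3 (0.080, adjusted p = 0.301). The counts over the whole gene do not show whether a small edit was present, and the groups are therefore named by their labels throughout.

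Among the alpha subunits, HIF1A was by far the most abundant in every library. Levels of different genes are compared as CPM per kilobase of counted exon. In H2O, HIF1A (chromosome 14, 61695513 to 61748259, plus strand) stood at 108.4 ± 0.953 CPM per kb (n = 2). HIF3A (chromosome 19, 46297046 to 46343433, plus strand), which gives rise to several isoforms including a dominant-negative form, stood at 0.951 ± 0.0282. EPAS1 (chromosome 2, 46293667 to 46386697, plus strand), which encodes HIF-2 alpha, stood at 0.278 ± 0.0368. HIF1A thus made up 98.9% of the summed alpha level per kb in H2O and 98.1% in WT. In WT the order of the minor subunits was the opposite, with EPAS1 at 2.86 ± 0.190 and HIF3A at 0.3595 ± 0.0324 CPM per kb.

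The full order in H2O was HIF1A, ARNT, VHL, EGLN3, ARNT2, HIF1AN, EGLN1, HIF3A, EGLN2 and EPAS1. The 2 libraries of each gene did not overlap with those of its neighbour in this order. ARNT (chromosome 1, 150809713 to 150876708, minus strand), the common partner of the alpha subunits, stood at 14.3 ± 0.120 CPM per kb. ARNT2 (chromosome 15, 80404350 to 80597933, plus strand), its neural paralog, stood at 8.24 ± 0.0190. VHL (chromosome 3, 10141008 to 10152220, plus strand) stood at 10.0 ± 0.222 and HIF1AN (chromosome 10, 100529072 to 100559998, plus strand) at 6.14 ± 0.260 CPM per kb. Of the hydroxylases, EGLN3 (chromosome 14, 33924227 to 34462774, minus strand) had the highest level over the full exon length, at 8.73 ± 0.162. EGLN1 (chromosome 1, 231363751 to 231422287, minus strand) stood at 4.05 ± 0.0078 and EGLN2 (chromosome 19, 40798996 to 40808434, plus strand) at 0.793 ± 0.0047. The places of EGLN1 and EGLN2 are uncertain for a reason given below. These coordinates are those of the deposited tables, in GRCh38.

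In WT the order was HIF1A, ARNT, VHL, HIF1AN, ARNT2, EGLN3, EPAS1, EGLN1, EGLN2 and HIF3A. HIF1AN and ARNT2 overlapped there, as did EGLN3 and EPAS1. The levels of EGLN1 and EGLN2 are uncertain, since 55.8% of the counted exon bases of EGLN1 are shared with AL445524.2 on the same strand and 30.6% of those of EGLN2 with RAB4B-EGLN2. The commands in the file headers hold no option that assigns a read to overlapping genes, and RAB4B-EGLN2 had a count of 0 in every library. Reads on shared bases may thus be uncounted while the full exon length divides the count. Both genes may therefore be ranked too low in these orders, EGLN1 also against EGLN3. Of HIF1AN, 2.3% of the counted exon bases overlap NDUFB8 on the other strand.

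**Figure D1:**
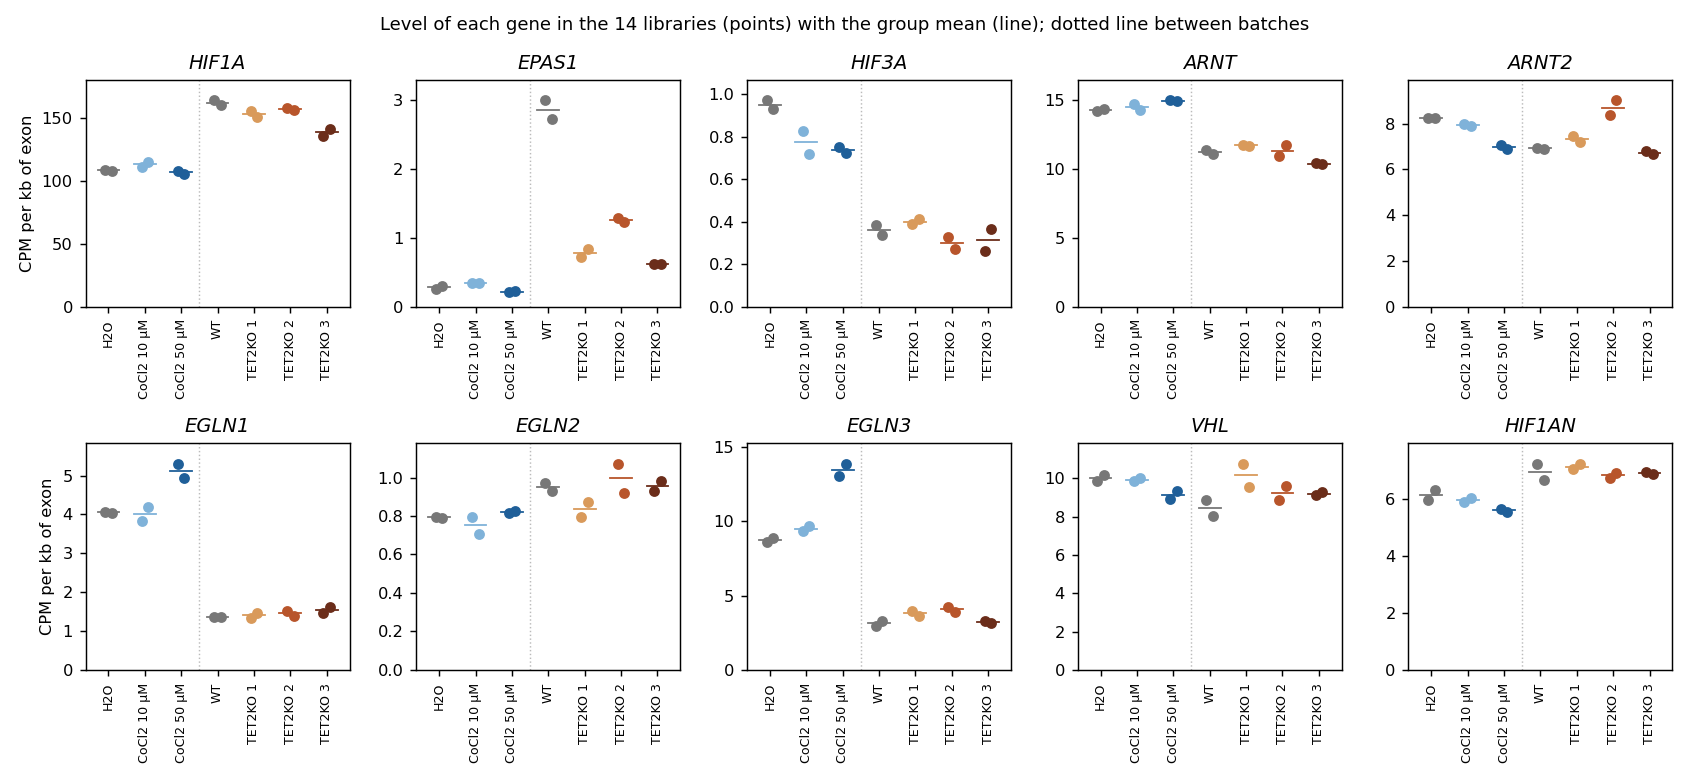
Level of each member in the 14 libraries, as CPM per kilobase of counted exon on a linear axis that starts at 0 (points: libraries; lines: means of 2; dotted line: border between the batches). EGLN3 and EGLN1 are highest with 50 µM CoCl2, and EPAS1 is highest in the WT libraries at 2.73 and 3.00 CPM per kb.

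The comparison of 50 µM CoCl2 with H2O asked how these genes respond to a chemical mimic of hypoxia. EGLN3 and EGLN1, the oxygen sensors that limit HIF, rose by 1.54 and 1.26 times, while HIF3A, ARNT2, VHL and HIF1AN fell by 8.79% to 22.5%. HIF1A and EPAS1 mRNA did not pass the test. In all, 7 of the 10 members were called at an adjusted p under 0.05 in edgeR's quasi-likelihood test, 3 higher and 4 lower. Of all 13636 genes tested, 30.4% were called higher and 31.1% lower, so a call alone is common in this comparison. The median log2 fold change of the members was -0.077 against 0.002 for all genes tested, and the median absolute change was 0.19 against 0.17. Only EGLN3 changed by at least 1.5-fold, as did 10.7% of all genes.

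EGLN3, the hydroxylase most strongly induced in many hypoxic cells, stood at 63.5 and 65.2 CPM in the H2O libraries and at 95.9 and 102.1 CPM in the 50 µM libraries. The groups did not overlap, and the log2 fold change was 0.62 (SE 0.031, adjusted p = 4.43e-44). EGLN1, the main hydroxylase of HIF-1 alpha in most tissues, stood at 21.8 and 21.8 CPM in H2O and at 28.5 and 26.6 CPM with 50 µM. Both treated libraries were above both controls, with a log2 change of 0.33 (SE 0.053, adjusted p = 9.36e-09). The overlapping AL445524.2 stood at 3.20 CPM in H2O and 3.60 CPM with 50 µM and did not pass the test (adjusted p = 0.309). EGLN2, a hydroxylase that is not induced by hypoxia, stood at 5.24 and 5.19 CPM in H2O and at 5.38 and 5.43 CPM with 50 µM, and the 95% interval of its log2 fold change ran from -0.17 to 0.27.

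Of the alpha subunits, HIF3A was lower. It stood at 8.12 and 7.79 CPM in H2O and at 6.30 and 6.04 CPM with 50 µM, with no overlap and a log2 change of -0.37 (SE 0.097, adjusted p = 0.000505). HIF1A stood at 561.9 and 555.0 CPM in H2O and at 556.4 and 544.3 CPM with 50 µM. Its libraries overlapped, and the interval of its log2 fold change was -0.054 to 0.011. That bounds the difference between these libraries to a few percent. Since the replicates may be technical, it does not bound the effect of treatment over separate cultures. EPAS1 had 72 and 88 counts in H2O and 49 and 57 with 50 µM. At this depth its log2 fold change of -0.36 had an interval of -0.74 to 0.018, and the adjusted p was 0.0936.

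The beta subunits moved apart. ARNT2 stood at 63.9 and 63.7 CPM in H2O and at 54.5 and 53.3 CPM with 50 µM, a log2 change of -0.24 (SE 0.035, adjusted p = 4.39e-10). ARNT stood at 91.6 and 92.7 CPM in H2O and at 96.7 and 96.4 CPM with 50 µM, a log2 change of 0.067 (SE 0.029, adjusted p = 0.0381). The ratio of ARNT to ARNT2 per kb was 1.73 ± 0.0191 in H2O and 2.15 ± 0.0304 with 50 µM. The call of ARNT was lost without any 1 of 5 libraries: the adjusted p was 0.178 and 0.0757 without H2O replicate 1 or 2, 0.0543 without 10 µM replicate 2, and 0.0934 and 0.0872 without 50 µM replicate 1 or 2. It was also lost with DESeq2 (adjusted p = 0.176), with no filter on low counts (0.0971) and in a fit of all 14 libraries (0.229).

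The mRNAs of VHL and HIF1AN, whose proteins act on the alpha subunits, were slightly lower. VHL stood at 41.6 and 42.9 CPM in H2O and at 37.6 and 39.4 CPM with 50 µM, a log2 change of -0.13 (SE 0.041, adjusted p = 0.00345). HIF1AN, also called FIH, stood at 82.7 and 87.8 CPM in H2O and at 78.5 and 77.2 CPM with 50 µM, a log2 change of -0.13 (SE 0.031, adjusted p = 8.4e-05). The call of VHL was lost without H2O replicate 2 (adjusted p = 0.0509), without 50 µM replicate 1 (0.0682), with DESeq2 (0.0628) and in the fit of all 14 libraries (0.0924). Those of EGLN3, EGLN1, ARNT2, HIF3A and HIF1AN held in every alternative run.

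**Figure D2:**
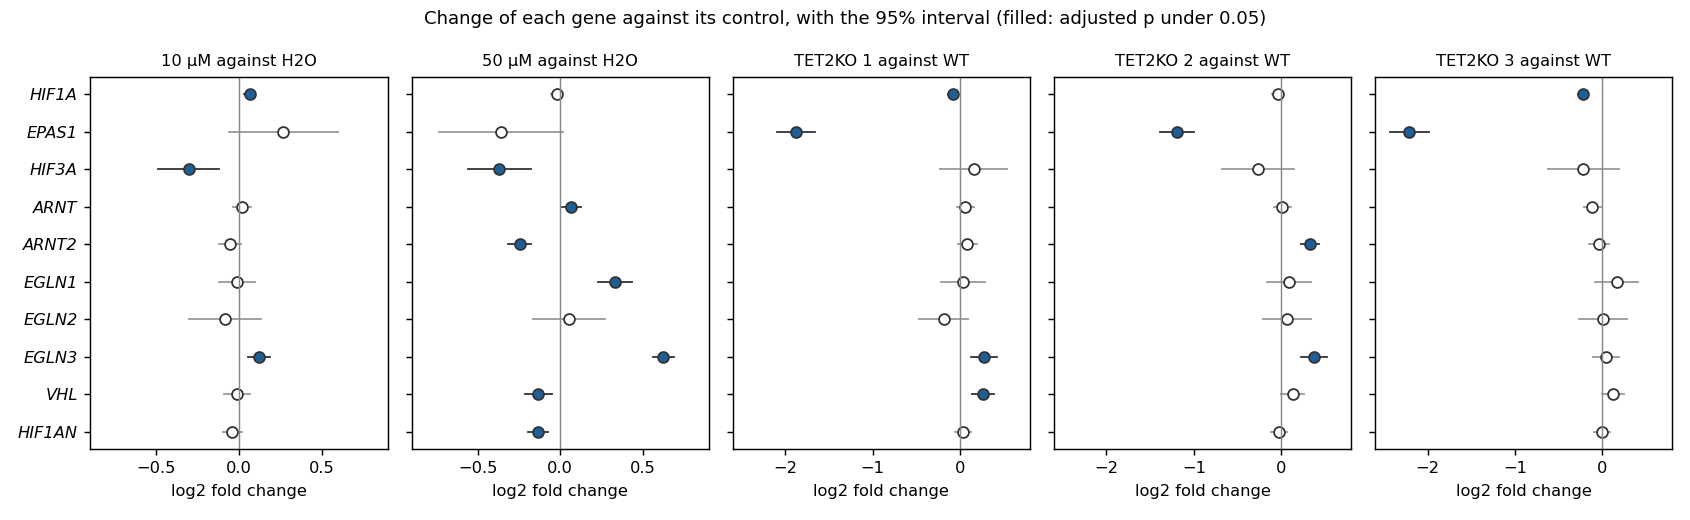
Log2 fold change of each member against H2O (both doses) or WT (TET2KO 1, 2 and 3), with its 95% interval; filled points have an adjusted p under 0.05, and the CoCl2 and TET2KO panels have different horizontal scales. EGLN3 has the largest rise at 50 µM, at 0.62, and EPAS1 lies between -1.19 and -2.21 in the labelled knockouts.

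The lower dose moved the members little. With 10 µM CoCl2, HIF1A and EGLN3 were called higher and HIF3A lower, 3 of 10 members, against 11.6% of all genes called higher and 11.1% lower. No member and 1.40% of all genes changed by at least 1.5-fold. HIF1A stood at 574.2 and 593.7 CPM with 10 µM, a log2 change of 0.065 (SE 0.016, adjusted p = 0.00122). EGLN3 stood at 68.6 and 71.2 CPM, a log2 change of 0.12 (SE 0.033, adjusted p = 0.00294). HIF3A stood at 6.92 and 6.02 CPM, a log2 change of -0.30 (SE 0.093, adjusted p = 0.0097). In each of the 3, the treated libraries lay outside the range of the H2O libraries, as they also did for EPAS1 and ARNT2, which were not called. With 2 libraries a group such a separation says little, and its share over all genes was not computed. None of the 3 calls was stable. In a fit of all 14 libraries the adjusted p of edgeR's quasi-likelihood test was 0.154 for HIF1A, 0.189 for EGLN3 and 0.199 for HIF3A. That fit also draws its spread from batch 2, where counts were made differently. The estimated dispersion was 0.000463 in batch 2 and 7.66e-05 in batch 1. Without 10 µM replicate 2 it was 0.249, 0.142 and 0.265 in the same order, so that no member was called. HIF1A was also lost without H2O replicate 2 (0.0515), and EGLN3 and HIF3A were lost without H2O replicate 1 (0.0692 and 0.08) and with DESeq2 (0.0992 and 0.208). The medians over the members, -0.013 for the log2 fold change and 0.059 for its size, were close to the -0.001 and 0.072 of all genes.

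EGLN1 stood at 20.6 and 22.6 CPM with 10 µM, on either side of the H2O libraries. The test of 50 µM against 10 µM gave a log2 difference of 0.35 for EGLN1 (SE 0.053, adjusted p = 7.05e-09) and of 0.50 for EGLN3 (SE 0.031, adjusted p = 5.8e-34). These 2 hydroxylases were called higher at 50 µM than at 10 µM, and HIF1A, EPAS1, ARNT2, VHL and HIF1AN were called lower. Of all genes, 26.2% were called higher and 26.5% lower between the doses. EPAS1 had the largest difference and was the only member past 1.5-fold, as were 6.72% of all genes. It had 86 and 95 counts with 10 µM, 2.45 and 2.44 CPM, against 1.57 and 1.60 CPM with 50 µM. The log2 difference was -0.63 (SE 0.18, adjusted p = 0.00233), and with DESeq2 the adjusted p was 0.0602. HIF1A was lower at 50 µM by 0.086 on the log2 scale (SE 0.017, adjusted p = 2.9e-06), and ARNT2 by 0.19 (SE 0.036, adjusted p = 1.55e-06). VHL and HIF1AN differed by -0.12 and -0.094 on the log2 scale (adjusted p = 0.0115 and 0.00819). Both calls were lost without 10 µM replicate 2 (adjusted p = 0.0892 and 0.122), with DESeq2 (0.121 and 0.105) and in the fit of all 14 libraries (0.163 and 0.114), VHL also without 50 µM replicate 1 (0.131) and HIF1AN without 50 µM replicate 2 (0.0694).

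Genes that HIF activates were read beside the members, from a list of 25 of which 23 were tested. With 50 µM CoCl2, 16 of the 23 rose and 4 fell, against 30.4% and 31.1% of all genes, with a median log2 fold change of 0.19 against 0.002 over all genes. AK4, a mitochondrial adenylate kinase, rose most, from 66.8 to 132.2 CPM (log2 fold change 0.99, adjusted p = 3.53e-74). ALDOC, a glycolytic aldolase, fell most, from 154.8 to 119.8 CPM (log2 fold change -0.37, adjusted p = 5.77e-30). With 10 µM, 5 rose and 11 fell, against 11.6% and 11.1% of all genes, with a median of -0.061 against -0.001 over all genes. Calls at this dose depended on the method, with 3098 genes called in the main fit, 1122 with DESeq2 and 796 in the fit of all 14 libraries. The list was counted in the main fit only. AK4 again rose most (0.50) and LOX, a collagen cross-linking oxidase, fell most (-0.32). Between 10 and 50 µM, 19 were higher and 1 lower, against 26.2% and 26.5% of all genes, led by CA9, a carbonic anhydrase, at 56.2 and 92.9 CPM. The same H2O libraries serve both doses, so the direction of a gene at the 2 doses is not independent.

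**Figure D3:**
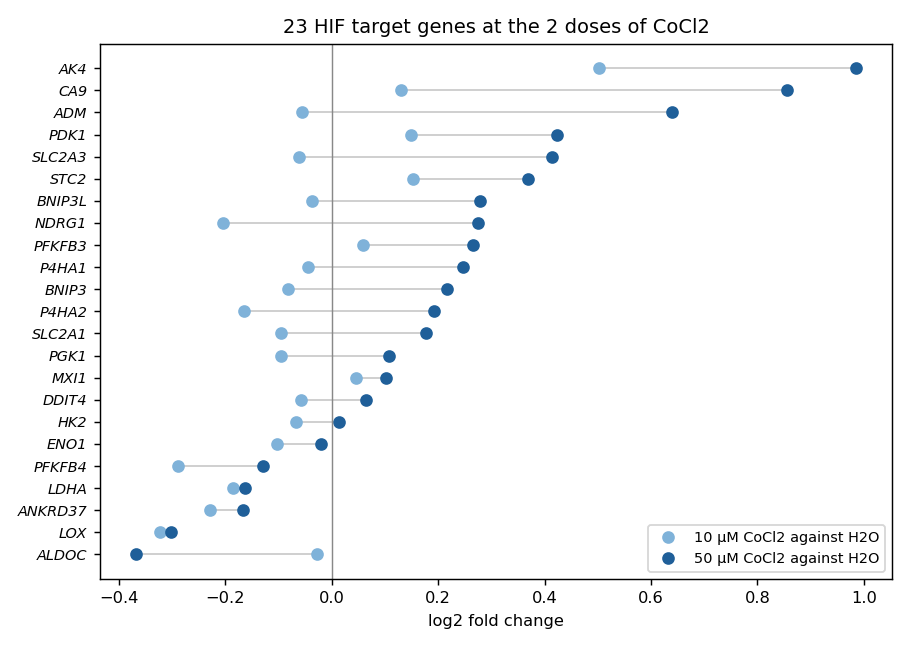
Log2 fold change against H2O of the 23 listed HIF target genes with 10 µM (light) and 50 µM (dark) CoCl2, ordered by the value at 50 µM. AK4 is highest at both doses, at 0.50 and 0.99, and both doses share the H2O libraries.

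The partners of VHL and the regulators of HIF turnover formed a list of 15 genes. With 50 µM, 5 rose and 4 fell, about the share of all genes (30.4% higher and 31.1% lower). WSB1, a ubiquitin ligase receptor reported to act on VHL, rose most, from 64.6 to 112.7 CPM (log2 fold change 0.80, adjusted p = 2.49e-58). HSP90AA1, a chaperone that stabilises HIF-1 alpha, fell most, from 1668 to 1440 CPM (log2 fold change -0.21, adjusted p = 5.44e-33). With 10 µM, 3 rose and 1 fell, none by 1.5-fold, against 11.6% and 11.1% of all genes called higher and lower. WSB1 was at 64.4 CPM there (adjusted p = 0.929). Of 8 HIF cofactors, 4 rose and 2 fell with 50 µM, where most genes were called (30.4% higher and 31.1% lower). NCOA1, a nuclear receptor coactivator, rose most, from 22.0 to 29.96 CPM, and CDK8, a kinase of the Mediator complex, fell most, from 62.7 to 56.3 CPM. The acetyltransferases CREBBP and EP300 had log2 fold changes of 0.15 and 0.12, and both passed the test.

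Among 9 other dioxygenases that use oxygen, 7 rose and 1 fell with 50 µM, against 30.4% and 31.1% of all genes, with a median log2 fold change of 0.11 against 0.002 for all genes. KDM3A, a histone H3 lysine demethylase, rose most, from 120.0 to 182.8 CPM (log2 fold change 0.61, adjusted p = 1.34e-55). ASPH, an aspartyl hydroxylase, fell by 0.077 on the log2 scale (adjusted p = 0.00726). Of 10 tested members of the bHLH-PAS family outside the HIF subunits, 5 rose and 1 fell with 50 µM, against the same shares of all genes. NPAS4, a neuronal activity gene, rose most, but from 0.228 to 0.532 CPM, and SIM2 fell most, from 0.470 to 0.182 CPM.

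In the labelled knockouts the largest change of a member was that of EPAS1, which was lower in all 6 libraries. EPAS1 stood at 21.9 and 19.9 CPM in WT, at 5.21 and 6.11 CPM in TET2KO 1, at 9.35 and 8.94 CPM in TET2KO 2 and at 4.51 and 4.52 CPM in TET2KO 3. The counts behind these values were 1202 and 1116 in WT and 232 to 521 in the knockout libraries. Every labelled knockout library was below both WT libraries, and the ranges of TET2KO 1, 2 and 3 did not overlap each other. EPAS1 fell by 72.8% in TET2KO 1 (log2 fold change -1.88, SE 0.11, adjusted p = 5.64e-40), by 56.2% in TET2KO 2 (-1.19, SE 0.098, adjusted p = 1.95e-24) and by 78.4% in TET2KO 3 (-2.21, SE 0.11, adjusted p = 2.84e-46). The 3 comparisons share the same WT libraries. These calls held in every alternative run. As a share of the alpha subunits per kb, EPAS1 was 1.73% ± 0.0834 in WT and 0.502% ± 0.0667, 0.788% ± 0.0199 and 0.443% ± 0.0117 in TET2KO 1, 2 and 3.

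EPAS1 is known as a gene of endothelial, mesenchymal and oxygen-sensing chromaffin cells, and marker lists of these types were read in the same libraries. The 10 endothelial markers summed to 16.5 and 16.8 CPM in WT, to 2.88 to 3.20 CPM in TET2KO 1, to 6.62 to 7.45 in TET2KO 2 and to 4.21 to 5.01 in TET2KO 3. Of these 10, 8, 5 and 6 were called lower in TET2KO 1, 2 and 3, where 9.72%, 14.3% and 9.96% of all genes were, and none higher. PECAM1, the endothelial adhesion molecule CD31, had 144 and 165 counts in WT and 0 to 12 in the labelled knockouts. CDH5, the cadherin of endothelial junctions, stood at 4.56 ± 0.293 CPM in WT, against 0.705, 1.60 and 0.732 CPM in TET2KO 1, 2 and 3. Of the 10 mesenchymal markers, 9 were tested and 6 were called lower in each labelled knockout, while 2, 0 and 1 were called higher. Of all genes, 7.79%, 12.0% and 8.90% were called higher in TET2KO 1, 2 and 3. COL3A1, a fibrillar collagen, stood at 154.9 ± 3.91 CPM in WT, against 14.8, 27.5 and 12.9 CPM in TET2KO 1, 2 and 3. FN1, fibronectin, stood at 315.7 CPM in WT, against 57.7, 134.2 and 54.5 CPM. The genes called higher were TWIST1 (log2 fold change 0.26) and VIM (0.086) in TET2KO 1 and TWIST1 (0.30) in TET2KO 3. The summed level of the 10 was 1474 to 1496 CPM in WT and 970.9 to 1159 CPM in the labelled knockouts. Most of this sum was VIM, which changed little, from 839.1 CPM in WT to 890.5, 878.7 and 798.2 CPM. PRRX1, a mesenchymal transcription factor, had 6 and 8 counts in WT, 10 and 16 in TET2KO 2 and 0 in the libraries of TET2KO 1 and 3. The macrophage markers summed to 11.9 to 13.2 CPM in WT and 7.76 to 16.9 CPM in the labelled knockouts, with PTPRC at 0 in the WT libraries. Of the 5 chromaffin and glomus cell markers, 4 were tested: 1 was called higher in TET2KO 1, 1 lower in TET2KO 2 and 0 in TET2KO 3. The shares of all genes given above are the background for these few calls. All of these markers but RGS5 had group means of at most 0.584 CPM in batch 2. Their sum, nearly all of it RGS5, was 6628 to 6657 CPM in WT and 6794 to 7126 CPM in the labelled knockouts. The part of these marker changes in the EPAS1 result was not tested, and in bulk RNA fewer cells of a type and less RNA per cell cannot be told apart.

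**Figure D4:**
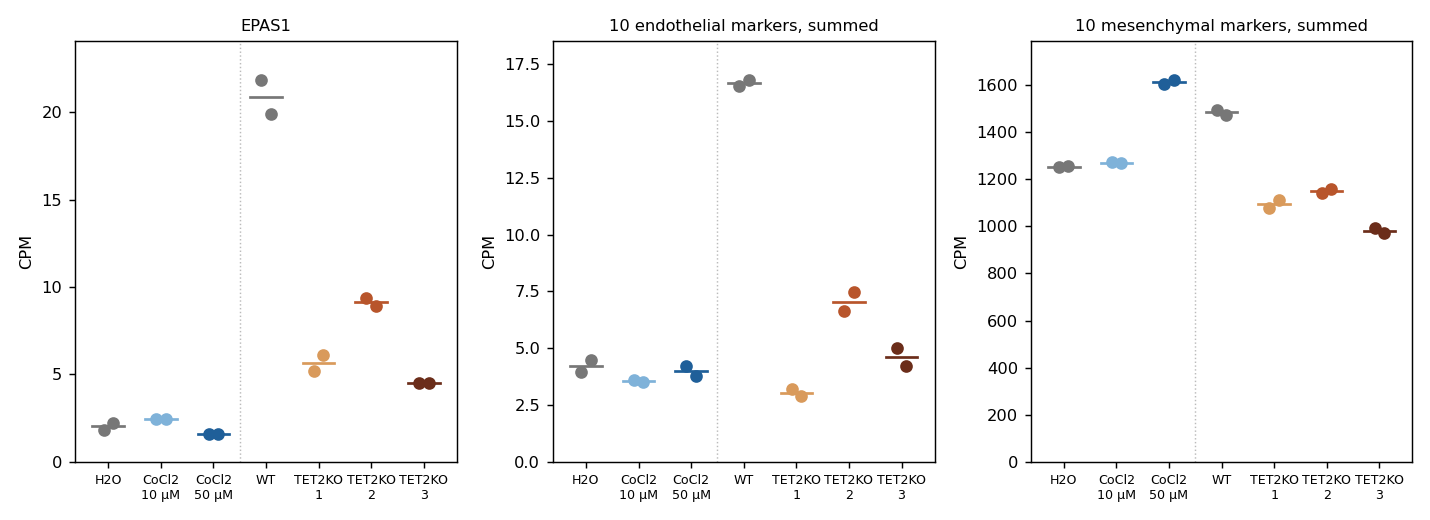
EPAS1 (left) beside the summed level of 10 endothelial (middle) and 10 mesenchymal (right) marker genes, in CPM on linear axes that start at 0 (points: libraries; lines: means of 2; dotted line: border between the batches). The WT libraries are above the labelled knockouts in all 3 panels, and the batch 1 libraries have EPAS1 levels of 1.57 to 2.45 CPM. In batch 1 the mesenchymal sum is 1251 to 1255 CPM in H2O and 1605 to 1624 CPM with 50 µM CoCl2. Most of it is VIM, at 1137 and 1521 CPM. The relation of EPAS1 to these sums was not tested.

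The other alpha subunits changed less. HIF1A stood at 845.6 and 825.2 CPM in WT, against 701.7 and 730.1 CPM in TET2KO 3, a log2 change of -0.22 (SE 0.030, adjusted p = 1.08e-10) that held in every alternative. In TET2KO 1 it stood at 802.8 and 778.8 CPM, a log2 change of -0.079 (SE 0.030, adjusted p = 0.0482). This call was lost in 12 of 16 alternatives, with an adjusted p of 0.305 without WT replicate 1, 0.0501 without WT replicate 2, 0.0568 and 0.408 without TET2KO 1 replicate 1 or 2, and 0.0744 and 0.072 without TET2KO 2 replicate 1 or 2. In TET2KO 2 HIF1A stood at 814.7 and 807.7 CPM, and the interval of its log2 fold change was -0.10 to 0.016. HIF3A stood at 2.19 to 3.44 CPM in all 8 batch 2 libraries and was not called in any labelled knockout. With 126 to 195 counts per library, its intervals reached from -0.67 to 0.54 on the log2 scale.

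Among the beta subunits, ARNT2 was higher in TET2KO 2. It stood at 53.6 and 53.5 CPM in WT, against 64.9 and 69.8 CPM in TET2KO 2, a log2 change of 0.33 (SE 0.053, adjusted p = 6.6e-08). In TET2KO 1 and 3 its intervals were -0.025 to 0.19 and -0.15 to 0.071. ARNT stood at 66.6 to 75.8 CPM in all batch 2 libraries and was not called in any labelled knockout. The ratio of ARNT to ARNT2 per kb was 1.62 ± 0.0283 in WT and 1.30 ± 0.0007 in TET2KO 2.

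Of the oxygen sensors, EGLN3 was higher in TET2KO 1 and 2. It stood at 21.9 and 24.3 CPM in WT, at 29.2 and 26.7 CPM in TET2KO 1 and at 31.1 and 28.8 CPM in TET2KO 2. The log2 fold changes were 0.27 (SE 0.075, adjusted p = 0.00391) and 0.37 (SE 0.074, adjusted p = 1.31e-05). In TET2KO 3 it stood at 24.2 and 23.3 CPM, within the range of the WT libraries. VHL stood at 37.4 and 33.8 CPM in WT, against 45.4 and 40.2 CPM in TET2KO 1, a log2 change of 0.26 (SE 0.064, adjusted p = 0.00072). In TET2KO 2 and 3 the log2 fold change of VHL was 0.13 and 0.12 (adjusted p = 0.13 and 0.183). The call of EGLN3 in TET2KO 1 was lost without WT replicate 1 (adjusted p = 0.14) and without TET2KO 1 replicate 1 (0.116), and that of VHL without WT replicate 2 (0.0881) and without TET2KO 1 replicate 1 (0.117). EGLN1, EGLN2 and HIF1AN were not called in any labelled knockout. HIF1AN, the best measured of them with 4913 to 5676 counts per library, had intervals that stayed between -0.12 and 0.13 on the log2 scale.

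Over the members, 4 were called in TET2KO 1, 2 higher and 2 lower, where 7.79% of 14061 genes were called higher and 9.72% lower. In TET2KO 2, 3 were called, 2 higher and 1 lower, where 12.0% and 14.3% of all genes were called. In TET2KO 3, 2 were called, both lower, where 8.90% were called higher and 9.96% lower. EPAS1 was the only member past 1.5-fold in each labelled knockout, as were 3.61%, 5.07% and 4.14% of all genes. The median absolute log2 fold change of the members was 0.12, 0.11 and 0.12, against 0.10, 0.12 and 0.11 over all genes. A single F-test of the differences among TET2KO 1, 2 and 3 called 5 members, HIF1A, EPAS1, ARNT, ARNT2 and EGLN3, against 37.6% of all genes.

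**Figure D5:**
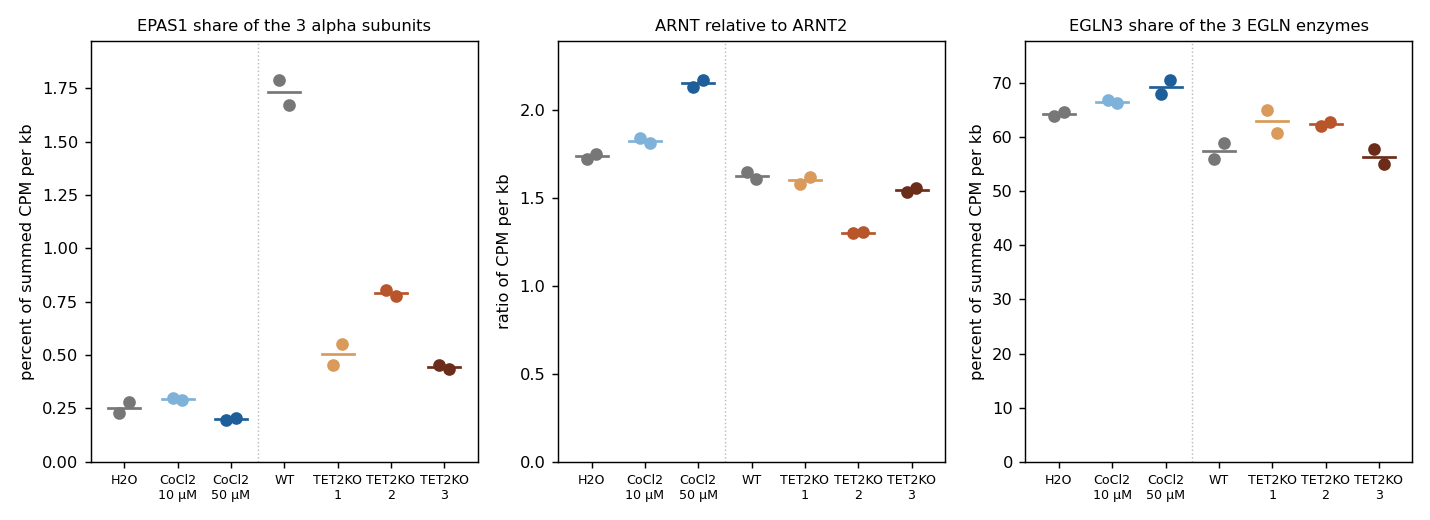
Make-up of 3 groups of members per kilobase in each library: the share of EPAS1 among the alpha subunits (left, percent), the ratio of ARNT to ARNT2 (middle) and the share of EGLN3 among the EGLN enzymes (right, percent), with lines at the means of 2 libraries. The ratio of ARNT to ARNT2 is highest with 50 µM CoCl2, at 2.15, and lowest in TET2KO 2, at 1.30. The share of EGLN3 may be too high, since exon bases of EGLN1 and EGLN2 are shared with other genes.

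The HIF target list moved in different directions in the labelled knockouts. Of the 23 genes tested, 7 rose and 2 fell in TET2KO 1, 4 rose and 11 fell in TET2KO 2, and 1 rose and 6 fell in TET2KO 3. Of all genes, 7.79%, 12.0% and 8.90% were called higher and 9.72%, 14.3% and 9.96% lower in TET2KO 1, 2 and 3, which is the background for this and the following lists. The medians were 0.055, -0.23 and -0.044, against -0.001 to 0.001 over all genes. ADM, the vasodilator adrenomedullin, fell most in each, from 2.55 CPM in WT to 1.09, 1.30 and 1.36 CPM. AK4 rose in TET2KO 1 and 3, from 17.8 CPM to 28.3 and 23.3 CPM, and P4HA2, a collagen prolyl hydroxylase, rose most in TET2KO 2, from 14.7 to 18.1 CPM. Among the bHLH-PAS genes, NPAS2 fell in TET2KO 1, 2 and 3, by 0.89, 1.06 and 0.98 on the log2 scale, and ARNTL (BMAL1), its partner in the circadian clock, rose by 0.62, 0.48 and 1.02. Of 9 bHLH-PAS genes tested, 3, 3 and 2 were called.

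Of the 15 genes around VHL, 1, 7 and 2 were called in TET2KO 1, 2 and 3, 1, 3 and 2 of them higher and 0, 4 and 0 lower. In TET2KO 1 and 3 that is no more than the share of all genes called in either direction. UBE2S, a ubiquitin-conjugating enzyme, was the largest riser in TET2KO 1 and 3, at log2 fold changes of 0.24 and 0.27. HSP90AA1 rose most in TET2KO 2, from 2889 to 4159 CPM (log2 fold change 0.53, adjusted p = 1.73e-48). Of the 8 cofactors, 2, 3 and 3 were called, and CITED2, a competitor of HIF for its coactivators, fell most in TET2KO 2 and 3, by 0.37 and 0.30 on the log2 scale. Of the 9 other dioxygenases, 1, 4 and 1 were called. KDM3A rose in TET2KO 2 from 53.9 to 71.3 CPM (adjusted p = 2.8e-11) and fell in TET2KO 3 to 48.7 CPM (adjusted p = 0.0491).

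The genes most like the leading member of each batch were taken by the distance between log2 CPM profiles relative to the control. For EGLN3 in the 6 batch 1 libraries, the nearest of 12229 genes were RHEBL1, ZNF224 and SHD, at root mean square distances of 0.028, 0.030 and 0.031 and correlations of 0.995, 0.994 and 0.994 over these 6 libraries. For EPAS1 in the 8 batch 2 libraries, the nearest of 12110 genes were PDGFRA, ACTA2 and ITGA3, at distances of 0.16, 0.17 and 0.23 and correlations of 0.985, 0.981 and 0.966. These points share libraries and controls, and the values are descriptions.

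The 2 control groups held different levels of several members. EPAS1 stood at 2.03 ± 0.268 CPM in H2O and at 20.9 ± 1.39 CPM in WT, 10.3 times as high. EGLN1 was 2.97 times, EGLN3 2.78 times and HIF3A 2.64 times as high in H2O as in WT. HIF1A was 1.5 times as high in WT, at 835.4 ± 14.4 against 558.4 ± 4.91 CPM. Counts were made differently in the 2 batches, and batch, culture and treatment with water cannot be told apart, so no test is given. The same holds for the marker levels in these controls, with endothelial markers at 3.96 to 4.49 CPM in H2O and 16.5 to 16.8 CPM in WT.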

How the data were processed

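For each of the 14 libraries, the authors deposited a table of raw counts by gene symbol. Per the file headers, the authors counted exons of protein-coding genes of GENCODE 33 (GRCh38) with featureCounts, version 1.5.3 in batch 1 and 2.0.5 in batch 2, with the paired-end option and no strand option. Reads of overlapping genes on opposite strands could therefore not be separated. Version 2.0.5 counts reads unless a further option is set, so batch 2 counts mostly stand for reads. The submitters' processing notes name Trimmomatic 0.36, STAR 2.6.1d and Subread 1.5.3. TRIzol was used for RNA, and the libraries were strand-specific and oligo-dT based, per the labels' protocols.

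Groups were read from the sample labels. Each batch was fitted apart with edgeR 4.0.16 under R 4.3.3 (TMM scaling, filterByExpr by group, estimateDisp, glmQLFit with robust = TRUE and legacy = FALSE, glmQLFTest), over 13636 and 14061 genes, with a dispersion of at least 0.0001001. Calls required an adjusted p under 0.05 (Benjamini-Hochberg, over all genes tested). All 10 members passed the filter in both batches. CPM used TMM-scaled totals, and CPM per kb was divided by the exon length in the tables. Alternatives were DESeq2 1.42.0, other scaling, filter, dispersion and block settings, batch 2 counts divided by 2, a fit of all 14 libraries and leaving out each library. Every member was described in every comparison; of each gene list, the largest riser and faller among called genes could be named. The members, lists and tests were chosen with earlier results of these data known, so a list's direction is not independent evidence. Genes most like EGLN3 and EPAS1 were sought at a mean CPM of at least 1 and a pseudocount of 0.5. The value of 1 marker gene of the labelled cell type is not reported here.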

Additional observations from a re-analysis of the deposited data

Results flagged for a closer look

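For 5 members the change against WT differed between TET2KO 1, 2 and 3 by edgeR's F-test of the difference, as it did for 37.6% of all genes. The gap between the largest and the smallest log2 fold change was 1.017 for EPAS1 (adjusted p = 1.02e-10), with TET2KO 2 the least and TET2KO 3 the most lowered. It was 0.37 for ARNT2 (adjusted p = 2.93e-09), which was highest in TET2KO 2, and 0.335 for EGLN3 (adjusted p = 0.000222), which was lowest in TET2KO 3. It was 0.181 for HIF1A (adjusted p = 1.16e-07), which was lowest in TET2KO 3. For ARNT it was 0.174 (adjusted p = 0.00825), and this call was lost without TET2KO 3 replicate 1 (adjusted p = 0.0501) or replicate 2 (0.0648).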

How the results depend on the processing

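Of 1060 values of single members under alternatives, 989 kept their direction and their side of the threshold, 50 lost a call, 3 gained one and 18 changed sign. Of the 26 calls over the 6 comparisons, 15 held in every alternative and 11 did not. The count of members called with 10 µM was 3, and it was 1 with DESeq2, 0 in the fit of all 14 libraries and 0 to 3 when 1 library was left out. Between 50 and 10 µM it was 7, and 4 with DESeq2. In TET2KO 1 it was 4, and 1 to 4 when 1 library was left out. The cause was not tested. Sign changes occurred only when 1 library was left out and only in values that had not been called. The log2 fold changes then ran, for 10 µM against H2O, from -0.002 to 0.041 for ARNT, from -0.086 to 0.051 for EGLN1, from -0.171 to 0.006 for EGLN2, from -0.036 to 0.008 for VHL and from -0.083 to 0.003 for HIF1AN. For HIF3A between the doses they ran from -0.168 to 0.034. In TET2KO 1 they ran from -0.04 to 0.106 for EGLN1 and from -0.021 to 0.097 for HIF1AN. In TET2KO 2 they ran from -0.044 to 0.064 for ARNT, from -0.051 to 0.171 for EGLN2 and from -0.093 to 0.026 for HIF1AN. In TET2KO 3 they ran from -0.455 to 0.019 for HIF3A, from -0.03 to 0.047 for EGLN2, from -0.031 to 0.113 for EGLN3 and from -0.065 to 0.053 for HIF1AN. A group left with 1 library was assumed to vary like the others. With the replicate number as a block, 1 of 70 member values, called or not, changed its side of the threshold. HIF1A in TET2KO 1 kept its log2 fold change of -0.079 but lost its call, at an adjusted p of 0.0745 in edgeR's quasi-likelihood test. The deviations of same-numbered libraries had correlations of -0.049 to 0.003 in batch 1 and -0.044 to 0.033 in batch 2. Counting noise is independent between libraries and can hide a shared deviation, so these values cannot show whether the numbers pair the libraries. With 2 libraries a group and 49 to 95 counts of EPAS1 in batch 1, small changes of that gene were not detectable.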

Other observations

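CA9 and NDUFA4L2, singled out after their values were seen, had far higher levels in H2O than in WT, with no test between the batches. CA9 stood at 51.4 CPM in H2O and at 0.224 CPM in WT. NDUFA4L2, a mitochondrial protein induced by HIF, stood at 105.2 CPM in H2O and at 0.216 CPM in WT. HIGD1C and PNMT, from the same marker list as NDUFA4L2, were low in both, at 0.228 and 0.457 CPM in H2O and at 0.262 and 0.566 CPM in WT. The 23 HIF target genes summed to 8877 to 8894 CPM in H2O and to 4386 to 4567 CPM in WT. Batch and culture cannot be told apart in these values. Within batch 1, NDUFA4L2 was higher with 50 µM CoCl2 than in H2O, at 215.3 CPM (log2 fold change 1.03, adjusted p = 1.53e-87 in edgeR's quasi-likelihood test), and with 10 µM it stood at 104.9 CPM (adjusted p = 0.925).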
